A study of Hordeum vulgare with 21 samples.

Results

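The messages described here are 97 barley genes whose transcript level stood high on the first day of germination and low before and after it. They were chosen from the measured levels themselves. A member had a mean of at least 10 TPM at day 1, and this mean was at least 4 times the mean of each of the other 6 stages. The rule took 97 of the 35826 genes in the table, or 0.271%. TPM is a transcript level corrected for transcript length, scaled so that every library has the same total.

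The RNA came from whole grains of the malting cultivar Conrad, and all groups share this genotype and 1 grain lot, pooled from 5 grain samples of 4 growing regions. Of the 7 stages, Dry is unmalted grain, DoG0 is steeped grain before germination, and DoG1 to DoG5 are grain after 1, 2, 3, 4 and 5 days of germination. Malted grain had been steeped for 38 h in 4 h cycles of immersion at 16 °C and air rest at 18 °C to 45% moisture, and then germinated at 17 °C with a collection every 24 h. Stages have 3 libraries each (A, B and C), which for malted grain came from 3 malting runs of 110 g, so that the spread between replicates is that of runs within 1 lot and not of crops or cultivars. Total expected counts per library ran from 18145400 to 31582116.

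The first day after steeping is the time when the embryo of a wetted cereal grain returns to growth and the root sheath breaks through the husk. In the same period the embryo releases gibberellins, and the aleurone, the living cell layer around the starchy endosperm, begins to make the enzymes that break down stored starch, protein and cell walls. What the 97 members do in this setting cannot be said here: none of the 35826 IDs matched the available gene table, so that no gene name, family, sequence or tissue marker is given for them. A whole grain holds embryo, aleurone and starchy endosperm together, and more cells that carry a message and more message per cell cannot be told apart in these data.

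One library weighed heavily in the choice of the members. DoG1 replicate C had the highest of the 3 DoG1 values for 86 of the 97 members, or 88.7%, against 22.8% of the 11122 genes with a DoG1 mean of at least 10 TPM. It was at least 2 times both other replicates for 33 members, or 34.0%, against 1.41% of those 11122 genes. The median member had 22.3, 23.0 and 49.4 TPM in DoG1 replicates A, B and C, while the medians of the 11122 genes were 36.2, 34.8 and 35.1 TPM. The member values of replicate C were therefore high beside those of A and B without a like shift of the other well expressed genes. This was also the deepest library, with 31582116 counts against 21252956 in A and 30957245 in B, and the part of depth in the result was not tested. With DoG1 replicate C left out of the mean, the rule took 50 genes, of which 49 were among the 97.

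**Figure D1:**
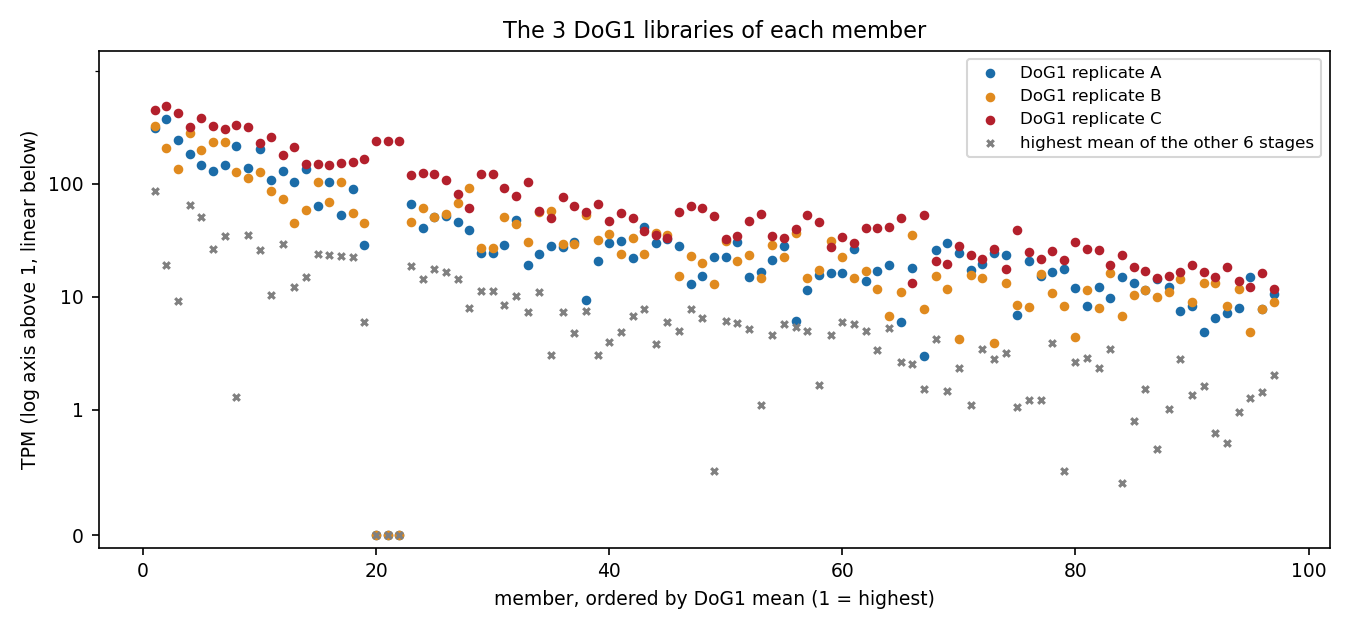
The 3 DoG1 libraries of each member in TPM (log axis above 1, linear below), members ordered by DoG1 mean; crosses are the highest mean among the other 6 stages. Replicate C lies highest for 86 of the 97 members, and 3 members with 238.73 TPM in replicate C are at 0 in A and B.

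Since the choice used these values, the DoG1 peak itself is a description and was not tested. How it held in libraries that took no part in the choice could still be read by choosing genes on 2 replicate letters and looking at the remaining one. Chosen without the C libraries, 46 genes met the rule; in the C libraries all 46 were highest at DoG1 and 42, or 91.3%, were again at least 4 times every other stage. Chosen without the A libraries, 120 genes met the rule; 110 were highest at DoG1 in the A libraries and 47, or 39.2%, reached 4 times. Chosen without the B libraries, 108 genes met the rule; 105 were highest at DoG1 in the B libraries and 54, or 50.0%, reached 4 times. The median ratio of DoG1 to the highest other stage was 3.20 in the A libraries, against 6.57 where the genes had been chosen, and 4.09 in the B libraries, against 6.82. In the C libraries it was 10.8, against 8.05 where the genes had been chosen. Ratios where the genes had been chosen used means of 2 libraries per stage. Those in the held-back letter used single libraries, so that the measures are unlike. DoG1 was the highest stage for most of the genes in whichever libraries had been held back, and the ratio was largest in the C libraries. The share of all genes highest at DoG1 in the same libraries is not given beside these counts.

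Together the members made up a small part of the transcript pool. Their summed level was 104.79, 264.75 and 330.64 TPM in Dry replicates A, B and C and 900.52, 483.07 and 513.75 TPM at DoG0. At DoG1 it was 4472.77, 4356.70 and 9153.98 TPM. By DoG2 it was 549.33, 572.62 and 730.51 TPM, and the stage means after that were 443 ± 125, 445 ± 37.5 and 433 ± 93.1 TPM at DoG3, DoG4 and DoG5 (SD, n = 3 each). The lowest DoG1 library lay above every library of the other stages, and replicates A and B were close to each other with C apart. As a share of all transcripts the members held 0.447%, 0.436% and 0.915% in the DoG1 libraries. The 10 members with the highest DoG1 means held 42.4% of the DoG1 sum.

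**Figure D2:**
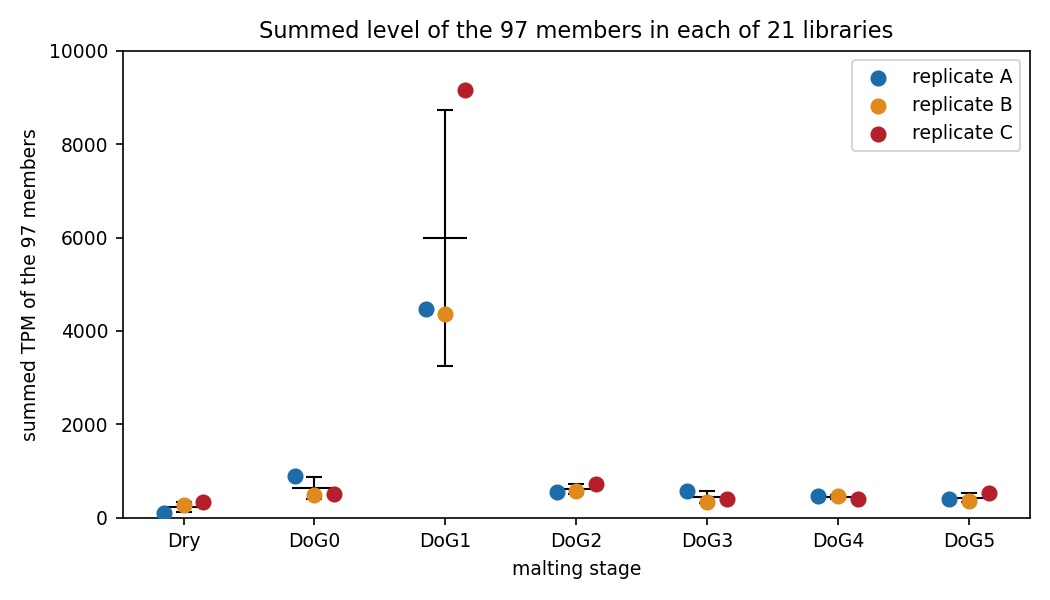
Summed level of the 97 members in TPM in each of the 21 libraries, by stage; points are libraries, bars the mean and SD of 3. The DoG1 libraries lie between 4356.70 and 9153.98 TPM and no library of another stage exceeds 900.52 TPM.

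Single members ranged widely in level. DoG1 means ran from 10.48 to 360 TPM with a median of 29.3 TPM; 18 members had 100 TPM or more and 28 had less than 20 TPM. The median member had 0.570 TPM in Dry grain, 2.78 at DoG0, 29.3 at DoG1, 3.11 at DoG2, 2.06 at DoG3, 1.63 at DoG4 and 1.52 TPM at DoG5. Most members were thus not silent outside DoG1, and only 11 stayed under 1 TPM at all 6 other stages. Dry grain was the stage with least of these messages: 58 members were under 1 TPM there and 14 were listed at 0, while 41 members were under 1 TPM at DoG5. The ratio of the DoG1 mean to the highest other stage mean had a median of 6.56. It was under 8 for 58 members, from 8 to 16 for 26 and 16 or more for 10, and 3 members had no value outside DoG1. In 90 of the 97 members every DoG1 library was above every library of the other stages, where 7.07% of all tested genes have this property; the rule used this contrast.

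**Figure D3:**
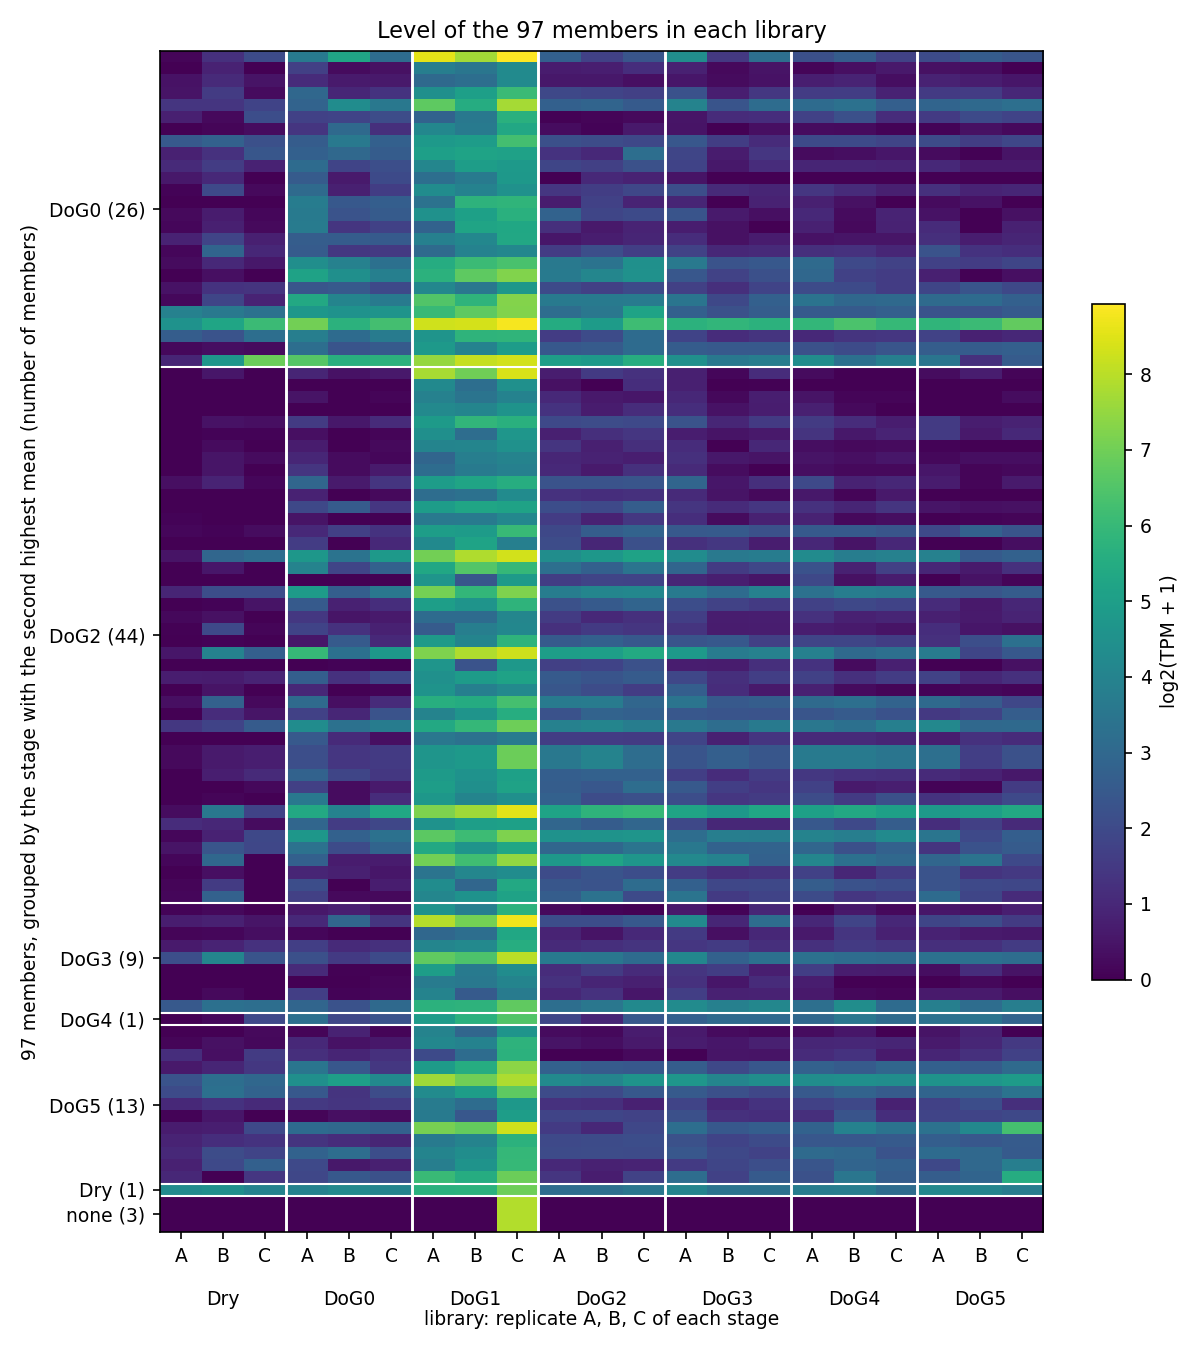
Level of each of the 97 members (rows) in each library (columns) as log2(TPM + 1), grouped by the stage with the second highest mean. The DoG1 columns are bright throughout, with C the brightest in most rows, and the lowest 3 rows have a value in DoG1 replicate C alone.

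The member with the highest DoG1 mean was HORVU.MOREX.r3.7HG0663840. It had 311.74, 324.34 and 444.18 TPM in the DoG1 libraries. Its other stages were also well expressed, with 22.78, 37.36 and 67.93 TPM in Dry grain, 128.69, 51.86 and 76.12 at DoG0 and 44.22, 28.66 and 71.12 at DoG2. From DoG3 its means were 54.6 ± 3.47, 69.0 ± 13.3 and 78.1 ± 28.5 TPM (SD, n = 3 each). The DoG1 libraries lay apart from all others, while the libraries of the other stages overlapped widely. The ratio of 4.21 to the next stage was close to the limit of the rule, and it was 3.91 with CPM, which scale counts by depth and TMM factors without a length correction, and 3.95 with median-of-ratios scaling. None of the 4 comparisons tested among the other stages passed; the nearest was DoG2 against DoG0 with a log2 fold change of -0.76 ± 0.33 (SE; adjusted p = 0.0557, edgeR quasi-likelihood test, Benjamini-Hochberg). This one passed in 4 of 15 alternative fits, those with DESeq2 (adjusted p = 0.0416), with the replicate letter as a block (-0.82, adjusted p = 0.0300), without DoG0 replicate B (-0.98, adjusted p = 0.0228) and without DoG2 replicate C (-1.13, adjusted p = 0.0117), and the adjusted p over these fits ran from 0.0117 to 0.316. Without DoG2 replicate C, DoG5 against DoG2 passed as well (1.08, adjusted p = 0.0455; 0.0455 to 0.450 over the fits). With limma on log2(TPM + 1), DoG0 against Dry (1.02, adjusted p = 0.0244) and DoG5 against Dry (0.93, adjusted p = 0.0349) passed, against 0.38 and 0.32 with edgeR; their adjusted p ran from 0.0240 to 0.955 and from 0.0343 to 0.943 over the fits.

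HORVU.MOREX.r3.1HG0051800 had nearly the same DoG1 mean but a far sharper peak. It had 376.92, 205.49 and 488.29 TPM in the DoG1 libraries. In Dry grain it had 0.09, 1.36 and 3.11 TPM, at DoG0 11.46, 37.22 and 8, and at DoG2 5.60, 2.34 and 4.13 TPM. Its DoG3 libraries spread from 1.81 to 19.69 TPM, and the DoG4 and DoG5 libraries lay between 2.40 and 5.28 TPM. The DoG1 mean was 18.9 times the DoG0 mean, the next highest. Over the steep it rose by 3.18 ± 0.83 in log2 (SE, DoG0 against Dry, adjusted p = 0.00308, edgeR), and no DoG0 library overlapped with a Dry library; the value was 2.15 without DoG0 replicate B and 4.23 without Dry replicate C. At DoG2 it lay below DoG0 by a log2 fold change of -2.22 ± 0.74 (SE, adjusted p = 0.0140), in 3 of 3 libraries. That second difference depends on single libraries and on the method. It was -1.17 without DoG0 replicate B (adjusted p = 0.171) and -1.95 without DoG2 replicate B (adjusted p = 0.0591). With limma on log2(TPM + 0.1) it was -1.96 (adjusted p = 0.0583). The adjusted p over 15 alternatives, of which 12 passed, ran from 0.00802 to 0.171.

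HORVU.MOREX.r3.6HG0617450 and HORVU.MOREX.r3.6HG0617470 stand for 3 members with identical values in all 21 libraries. Each had 238.73 TPM, or 5878.39 expected counts, in DoG1 replicate C and was listed at 0 in the other 20 libraries. Expected counts that are not whole mark reads shared between similar genes, and the equal split shows that these 3 IDs could not be told apart by the counting. They are members through 1 library alone and failed the filter on low counts, so that the counts of calls from the filtered fits do not include them. Without them the summed level of the members in DoG1 replicate C was 8437.79 TPM, still the highest of the 3.

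Among the members with a value elsewhere, the largest ratio of DoG1 to the next stage was that of HORVU.MOREX.r3.3HG0321720, singled out after its values were seen. It had 216.23, 127.78 and 333.43 TPM in the DoG1 libraries and at most 1.83 TPM in any other library. Its 3 DoG2 libraries had 0.63, 1.83 and 1.42 TPM and its 3 DoG0 libraries 0.89, 0.34 and 0.54 TPM. The DoG1 mean was 175 times the DoG2 mean, and none of the 4 comparisons tested among the other stages passed in the edgeR fit of all libraries. There DoG0 against Dry had a log2 fold change of 1.48 (adjusted p = 0.279, edgeR). It passed in 2 of 14 alternatives, whose adjusted p ran from 0.0321 to 0.555. These were edgeR without Dry replicate B, the one Dry library with a value for it (adjusted p = 0.0498), and limma on log2(TPM + 0.1) (1.90, adjusted p = 0.0321).

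**Figure D4:**
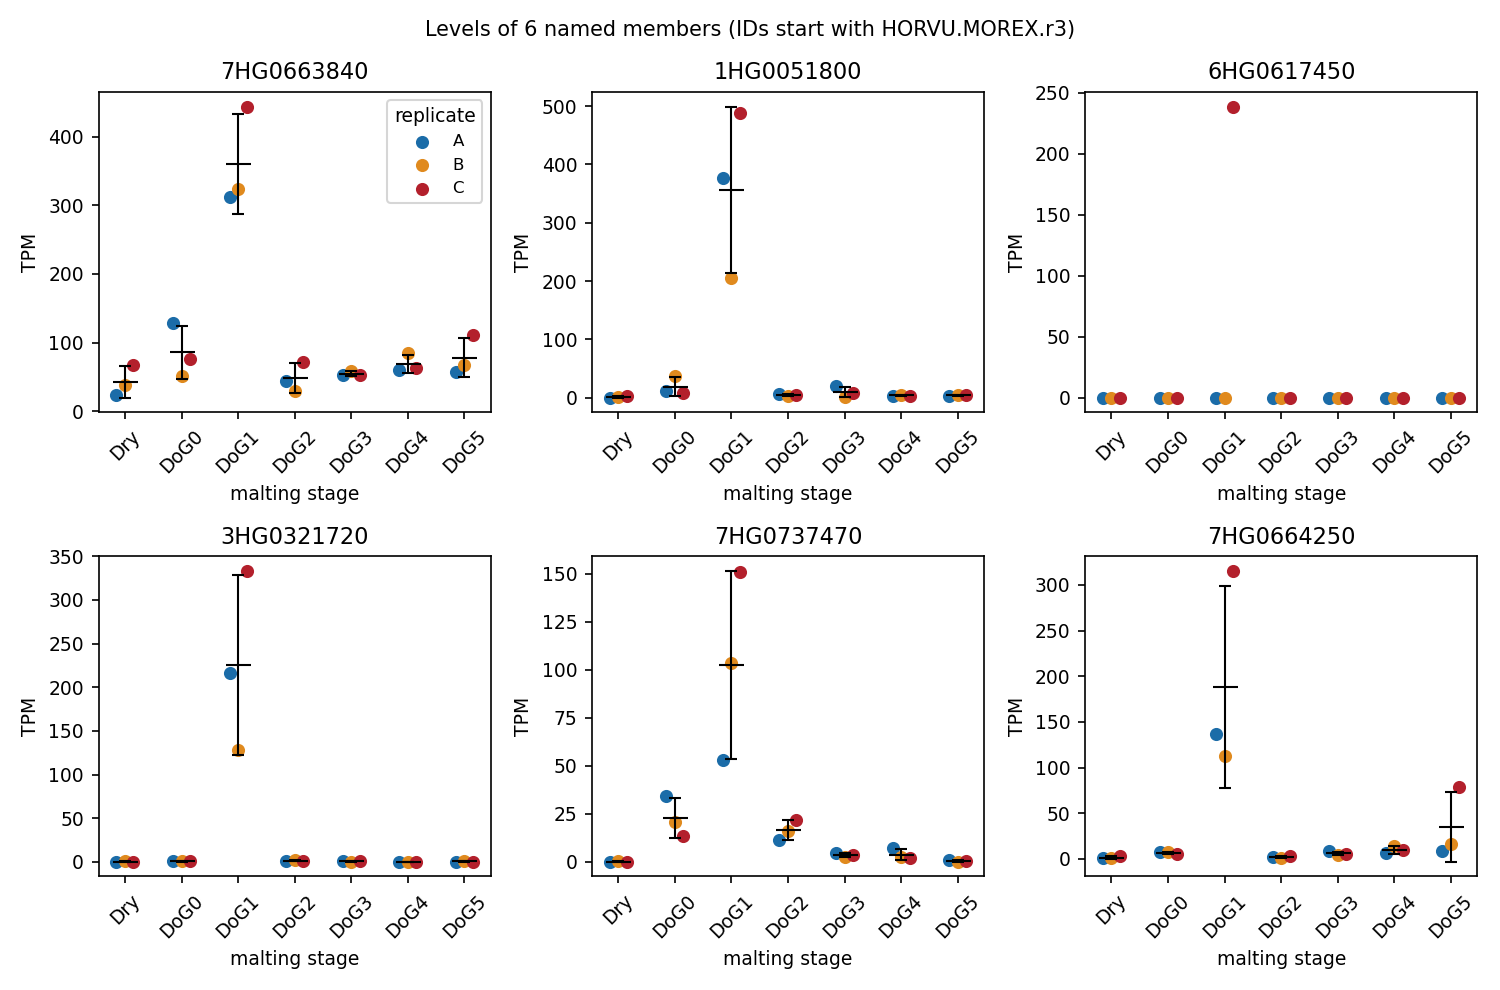
TPM of 6 named members in every library by stage; points are replicates A, B and C, bars the mean and SD of 3 (not drawn for 6HG0617450, which has 1 library above 0). The DoG1 libraries stand above the rest in each panel but that one, 7HG0663840 has 22.78 TPM or more throughout, and 7HG0664250 is raised again at DoG5, with its highest value there, 78.70 TPM, in replicate C.

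The members differed in the side of the peak on which they still had message. For 44 members, or 45.4%, DoG2 was the second highest stage; for 26, or 26.8%, it was DoG0; for 13, or 13.4%, it was DoG5; and for 9 it was DoG3. The DoG2 group was nearly absent from Dry grain, with group medians of 0.158 TPM in Dry grain, 1.79 at DoG0, 28.2 at DoG1, 4.39 at DoG2 and 1.10 at DoG5. The DoG0 group had medians of 1.17, 5.84, 34.1, 3.04 and 1.50 TPM at the same stages. The DoG5 group was higher late than at DoG2, with medians of 32.0 TPM at DoG1, 1.88 at DoG2, 3.05 at DoG3, 5.24 at DoG4 and 6.03 at DoG5. The groups were formed on these levels, so that the order within each is a description. The DoG1 replicates did not weigh the same in all groups: replicate C was at least 2 times both other replicates in 10 of the 13 members of the DoG5 group, 8 of the 26 of the DoG0 group and 7 of the 44 of the DoG2 group.

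A part of the members came in groups of neighbouring IDs. IDs on the same chromosome code, linked where the next member's number was at most 100 higher, formed 12 groups that hold 32 members, or 33.0%. When the same rule was applied with the peak at another stage, the share was 22.0% of 100 genes for Dry grain and 11.4% of 35 genes for DoG0. For DoG2 it was 28.6% of 7 genes and for DoG5 0 of 5 genes. The share depends on the size of a list, so that these lists are unlike, and no share over all genes is given. Positions in the genome are not given in the table, and the closeness is that of the ID numbers. Of the 32 grouped members 25 had fractional expected counts, against 12 of the 65 others, so that the single values of most grouped members are uncertain. Among all members 37 had fractional counts, or 38.1%, against 18.5% of all tested genes; the shares were 37.0% for the genes with the peak in Dry grain and 40.0% for those with the peak at DoG0. All 7 chromosome codes held members, from 9 on 6H to 19 on 7H.

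The largest group held 6 members on 7H, and its summed level was 344.46, 425.80 and 752.79 TPM in the DoG1 libraries. The sum was 1.18, 17.24 and 9.87 TPM in Dry grain, 102.82, 18.62 and 41.71 at DoG0, 81.86, 88.61 and 89.59 at DoG2, and 39.79, 10.01 and 17.94 TPM at DoG5. DoG0 replicate A stood high and the DoG5 libraries lay below all DoG2 libraries. Of its members 4 passed the test as lower at DoG5 than at DoG2. Its 6 IDs had 5 distinct profiles over the 21 libraries, and the identical pair was counted as separate members throughout. That pair was not among the 4, and was called higher in DoG2 against DoG0 and in DoG5 against Dry. A group of 4 members on 3H was low but sharper, with DoG1 means from 12.9 to 18.7 TPM and ratios to the next stage from 12.7 to 18.8. Its summed level was 58.97, 52.46 and 74.93 TPM in the DoG1 libraries, 5.54, 2.75 and 3.69 TPM at DoG2 and 0.07, 0.15 and 0.22 TPM at DoG5. All 4 were higher at DoG2 than at DoG0 and lower at DoG5 than at DoG2 by the test, and DoG1 replicate C stood less far from A and B in this group than in the 7H group.

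The members had short transcripts beside the median gene. Relative transcript length, the expected count over TPM scaled to the median of each library, had a median of 0.705 over the 97 members and 0.956 over 21418 genes. It was 0.372 for the 100 genes with the peak in Dry grain and 0.781 for the 35 with the peak at DoG0. These are descriptions with no test.

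The 4 comparisons tested, DoG0 against Dry, DoG2 against DoG0, DoG5 against DoG2 and DoG5 against Dry, set no DoG1 mean against another. The DoG1 libraries still entered the filter and the estimate of the spread, so that each count is also given from a fit and filter without them. The rule caps the members at these stages, and both the cap and the filter limit what the tests can say about the members' size of change. Of the 97 members 94 passed the filter on low counts, 3 of them only through their DoG1 libraries, and the tests were fitted on all 20637 genes that passed; without the DoG1 libraries 91 members were tested among 20356 genes. A gene was called when its adjusted p was under 0.05 in edgeR's quasi-likelihood test with Benjamini-Hochberg adjustment. The 4 comparisons share libraries, and so their counts are not independent of each other.

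Over the steep most of the members that moved went up. At DoG0 against Dry 38 of the 94 members, or 40.4%, passed, where 61.2% of all tested genes did. Of these 34, or 36.2% of the members, were higher, where 29.2% of all tested genes were higher, and 4 members, or 4.26%, were lower, where 32.0% of all were lower. The other 56 did not pass. Fitted without the DoG1 libraries, 37 of 91 members were higher and 6 lower, where 29.7% and 32.3% of all tested genes were. The median log2 fold change of the members was 1.54, against -0.02 over all tested genes, and it was 1.47 over 88 members with stages without counts set at a floor of 3 counts. The 34 had a median log2 fold change of 3.27. The member HORVU.MOREX.r3.7HG0737470, named after its values were seen, had 34.16, 20.86 and 13.62 TPM at DoG0, against 0, 0.28 and 0 TPM in Dry grain, where its 6 counts all came from replicate B. Its groups did not overlap, and its log2 fold change was 7.39 ± 0.91 (SE, adjusted p = 1.73e-06, edgeR); without Dry replicate B no count is left in Dry grain and no fold is given. Of the 33 members with DoG1 replicate C at least 2 times A and B, 30 were tested and gave 7 higher and 4 lower calls, while the other 64 gave 27 higher calls. The 4 lower calls became 2 without DoG0 replicate B or with the replicate letter as a block, 0 without Dry replicate B (edgeR, 45 higher; 3 lower at an unadjusted p under 0.05) and 0 with limma on log2(TPM + 0.1) (56 higher; 1 lower at an unadjusted p under 0.05). With limma on log2(TPM + 0.1) all tested genes split into 10019 higher and 3146 lower. Without scaling factors all tested genes split into 7230 higher and 5248 lower, against 6027 and 6601 with TMM, and the members into 42 and 2.

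Between the stages on either side of the peak the members moved in both directions. At DoG2 against DoG0 34 members, or 36.2%, passed, where 65.1% of all tested genes did: 24 of 94 members, or 25.5%, were higher, where 34.9% of all tested genes were higher, and 10, or 10.6%, were lower, where 30.2% of all were lower. Fitted without the DoG1 libraries, 18 of 91 members were higher and 12 lower, where 34.7% and 31.4% of all tested genes were. The median log2 fold change was 0.23 for the members and 0.05 for all tested genes, and 60 members did not pass, which does not show that their levels were equal. The member 7HG0737470 had 11.55, 16.12 and 21.94 TPM at DoG2, overlapping with its DoG0 libraries (log2 fold change -0.40 ± 0.53 SE, adjusted p = 0.520, edgeR). Single libraries moved these values: the members' median was 0.93 without DoG0 replicate A, 0.04 without DoG0 replicate B, -0.01 without DoG0 replicate C and 0.14 without DoG2 replicate C. Further, 37 of 94 members were higher without DoG0 replicate A, the DoG0 library with the highest summed level. In that fit 7119 of 21073 tested genes were higher. Thus the members' share of higher calls lay above that of all tested genes there, and below it with all libraries. Without DoG2 replicate B 5 of 94 members were lower, where 5542 of 21055 tested genes were.

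After DoG2 the members went further down than up. At DoG5 against DoG2 35 members, or 37.2%, passed, where 25.7% of all tested genes did: 30 of 94 members, or 31.9%, were lower, where 12.6% of all tested genes were lower, and 5, or 5.32%, were higher, where 13.2% of all were higher. The other 59 did not pass. Fitted without the DoG1 libraries, 28 of 91 members were lower and 10 higher, where 12.3% and 14.5% of all tested genes were. The median log2 fold change was -1.01 for the members and 0.03 for all tested genes, and all 30 lower calls were at least 2-fold, with a median of -3.29. Members in groups of neighbouring IDs, most of them with fractional counts, gave 18 of these 30 calls. With whole counts only, 12 of 60 members were lower. Of the 24 members that were higher at DoG2 than at DoG0, 10 were lower again at DoG5, and 14 of the 34 that had risen over the steep were among the 30. The member 7HG0737470 had 0.73, 0.04 and 0.30 TPM at DoG5, against 11.55, 16.12 and 21.94 TPM at DoG2, with no overlap. Its log2 fold change was -5.46 ± 0.74 (SE, adjusted p = 9.99e-05, edgeR), the largest fall among the called members with counts at both stages, and it was -6.85 without DoG5 replicate A and -4.89 without DoG5 replicate B.

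The opposite change at the end was called for 5 of 94 members in the fit of all libraries and for 10 of 91 without the DoG1 libraries. With the 6 libraries of DoG5 and DoG2 alone it was called for 10 of 82. In the same fits 2719 of 20637, 2955 of 20356 and 3120 of 19198 tested genes were higher, a larger share each time. HORVU.MOREX.r3.7HG0664250, the member that gained most in TPM from DoG2 to DoG5, had 9.24, 16.85 and 78.70 TPM at DoG5, against 1.88, 1.01 and 2.75 TPM at DoG2. Its DoG1 libraries had 136.43, 112.55 and 315.50 TPM. The groups did not overlap, and DoG5 replicate C stood far above A and B. The log2 fold change was 4.17 ± 0.72 (SE, adjusted p = 0.000687, edgeR), and it was 2.81 without DoG5 replicate C (adjusted p = 0.00290; 1.19e-07 to 0.0100 over 15 alternatives). It had fractional counts, as did the next ID, HORVU.MOREX.r3.7HG0664260, which is also a member and was also called higher. The other 3 of the 5 higher calls were members on 1H, 4H and 6H.

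The late calls were also counted in subsets of the members. Of the 50 genes that met the rule without DoG1 replicate C, 23 were lower at DoG5 than at DoG2 and 0 were higher by edgeR, where 12.6% and 13.2% of all tested genes were. At an unadjusted p under 0.05, 3 of the 50 were higher by edgeR, and DESeq2 called 2 of them higher and 23 lower. The 48 members that met it only with that library, of which 45 were tested, gave 7 lower and 5 higher. In the 33 members with DoG1 replicate C at least 2 times A and B, 30 of them tested, 1 was lower and 4 were higher, with a median log2 fold change of 0.22; in the other 64, 29 were lower and 1 was higher, with a median of -1.77. Of the 29 tested members in groups of neighbouring IDs 18 were lower, against 12 of the 65 outside such groups. Fractional counts were found in 25 of the 32 grouped members, so that their calls may not be separate from each other. With whole counts only, 12 of 60 members were lower and 3 higher. The difference between these subsets was not tested.

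At the end of germination 29 members lay above and 8 below their level in dry grain by the test. Both shares were under those of all tested genes. At DoG5 against Dry 37 members, or 39.4%, passed, where 69.3% of all tested genes did: 29 of 94 members, or 30.9%, were higher, where 36.8% of all tested genes were higher, and 8, or 8.51%, were lower, where 32.5% of all were lower. Fitted without the DoG1 libraries, 30 of 91 members were higher and 7 lower, where 37.3% and 32.8% of all tested genes were. The median log2 fold change was 1.00 for the members and 0.08 for all tested genes, 1.82 for the members without Dry replicate B, and 0.89 over 84 members with stages without counts set at the floor. Of the 34 members that had risen over the steep 18 were still higher at DoG5 than in Dry grain and 16 did not pass. The member 7HG0664250 had 9.24, 16.85 and 78.70 TPM at DoG5, against 0.60, 0.69 and 2.97 TPM in Dry grain (log2 fold change 4.06 ± 0.75 SE, adjusted p = 0.000117, edgeR), and the value was 2.72 without DoG5 replicate C (adjusted p = 0.000656; 3.82e-08 to 0.00789 over 15 alternatives). The 8 lower calls became 4 without DoG5 replicate B and 5 without DoG5 replicate C, Dry replicate A or Dry replicate B. Limma on log2(TPM + 1) gave 29 higher and 3 lower members, where all tested genes gave 10657 and 3449. On log2(TPM + 0.1) it gave 42 and 3, where all tested genes gave 11017 and 3417. With limma on log2(TPM + 1) the members' median was 0.51, against 0.46 over all tested genes. Over all 4 comparisons 20 members passed in none.

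**Figure D5:**
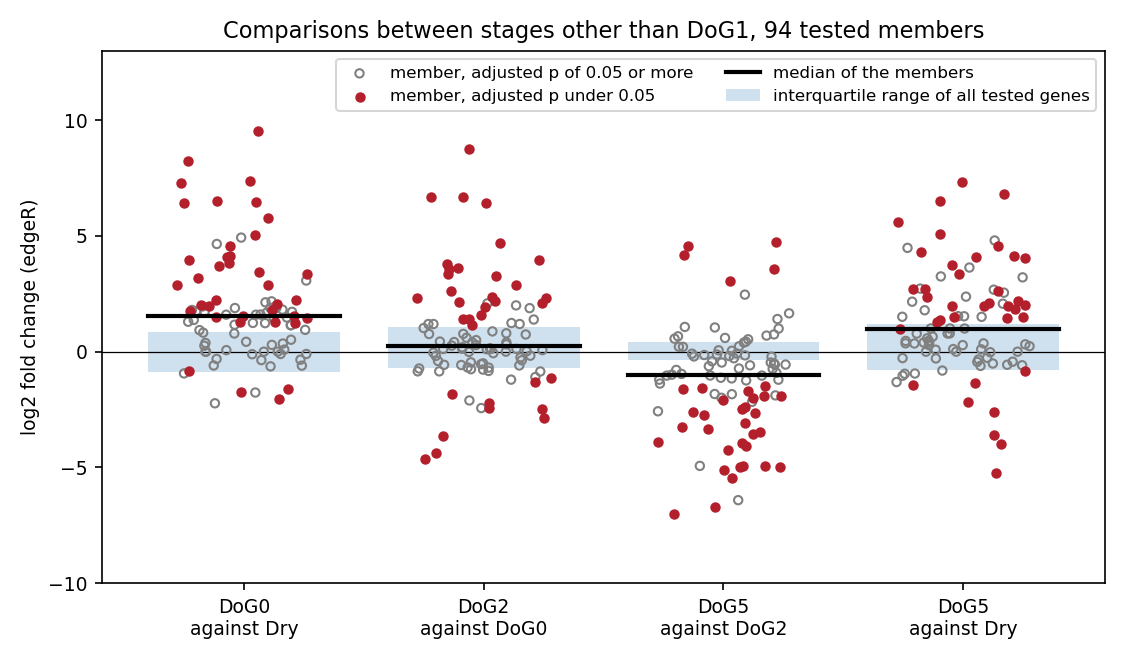
Log2 fold changes (edgeR) of the 94 tested members in the 4 comparisons between other stages than DoG1, from the fit of all 21 libraries; filled points passed at an adjusted p under 0.05, lines are the members' medians and bands the interquartile range of all tested genes. The medians are 1.54, 0.23, -1.01 and 1.00 from left to right, and lower calls outnumber higher ones in DoG5 against DoG2 alone.

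The thresholds cut through a continuum. The 3 members just inside the fold limit had ratios of 4.01, 4.07 and 4.09 and the 3 genes just outside had 3.95, 3.94 and 3.93. The 3 members just inside the level limit had DoG1 means of 10.48, 10.54 and 10.65 TPM, and the 3 genes just outside had 9.95, 9.95 and 9.76 TPM.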

How the data were processed

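Poly-A selected RNA of 21 libraries (7 stages with 3 replicates each) was sequenced from a strand-keeping kit, per the labels' protocols. Deposited by the authors were TPM and expected counts, read numbers estimated per gene that need not be whole; the submitters' processing notes name STAR and RSEM. Their versions, the genome build and the annotation: not given in the sources used here. No column of other samples was present (0). The members were found on the deposited TPM. Expected counts were rounded, filtered with filterByExpr (minimum count 10, minimum total 15) and fitted as 7 stage means over all 21 libraries in edgeR 4.0.16 (R 4.3.3) with TMM scaling; limma 3.58.1 and DESeq2 1.42.0 served as alternatives. Benjamini-Hochberg adjustment covered all 20637 tested genes, the threshold was 0.05, and SE is the absolute log2 fold change over the square root of its F statistic. A count was called fractional when further than 1e-09 from a whole number.

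The members, comparisons and groupings were chosen with earlier results of these data known. The reference table of 58438 genes (MorexV3_pseudomolecules_assembly) held 0 of the 35826 IDs, so that markers, gene names and sequences were not used here. The rule for named IDs took 4: the 2 members with the highest DoG1 mean and then the 2 with the largest ratio to the next stage, with other means under 0.1 TPM set to 0.1; 3 members tied in that ratio. IDs 3HG0321720, 7HG0737470, 7HG0664250 and 7HG0664260 were named after their values were seen. Replicates differed by more than sampling noise, with a chi-square per degree of freedom of 8.36 to 118. P-values set a difference between stages against the spread between replicate libraries. For malted grain that is the spread between runs within 1 lot, and part of it may be technical. TPM are shares, so a level can move because other messages do.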

Additional observations from a re-analysis of the deposited data

How the results depend on the processing

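Leaving out each library in turn, 28 to 45 members were called in DoG0 against Dry and 25 to 45 in DoG2 against DoG0. In DoG5 against DoG2 25 to 36 were called, and in DoG5 against Dry 26 to 40. With all libraries these counts were 38, 34, 35 and 37. The share of all tested genes called ran from 56.3% to 59.7%, 58.2% to 62.7%, 16.1% to 22.1% and 63.9% to 68.4%. With all libraries it was 61.2%, 65.1%, 25.7% and 69.3%, so that it fell as well. The subsets of members below use the fit of all libraries. The rule took 50 to 114 genes, 50 without DoG1 replicate C. A limit of 6 times gave 53 members; limits of 3 times, 5 TPM or 20 TPM, stage medians or CPM gave 138, 133, 69, 91 and 65. With members chosen without DoG1 replicate C, a choice made after seeing the data, the 4 comparisons called 22, 17, 23 and 15 of 50 members. With members of whole counts only, also chosen after seeing the data, they called 29, 17, 15 and 24 of 60. With the replicate block 37, 35, 34 and 34 members were called, where 60.2%, 64.2%, 23.8% and 68.4% of all tested genes were. Of the counts by direction only the lower calls in DoG0 against Dry moved by over 1.5 times, to 2. Correlations of deviations between libraries of 1 letter ran from -0.295 to 0.195, and the letters were not taken to pair libraries. Without scaling factors the median of all tested genes shifted to 0.17 in DoG0 against Dry and 0.37 in DoG5 against Dry (members 1.78 and 1.25). All tested genes then split into 9097 higher and 4962 lower in the second. With limma on log2(TPM + 0.1) these medians were 0.56 and 0.67 (members 1.86 and 1.27). With limma on log2(TPM + 1) they were 0.36 and 0.46 (members 0.99 and 0.51), so that little difference was left in DoG5 against Dry. In DoG5 against DoG2, 10 of 91 members were higher without the DoG1 libraries in the fit, where 2955 of 20356 tested genes were. The causes were not tested. Depth limits the members near 0: 58 had under 1 TPM in Dry grain.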

Other observations

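Applied to each other stage in turn, the same rule took 100 genes with the peak in Dry grain, 35 at DoG0, 7 at DoG2, 0 at DoG3, 0 at DoG4 and 5 at DoG5, so that peaks of this size that fit a single stage were found mostly in Dry grain, at DoG1 and at DoG0. In each of these lists 1 replicate held most of the highest values: replicate A for 70 of the 100 Dry genes, B for 32 of the 35 DoG0 genes, C for 86 of the 97 DoG1 members, B for 6 of the 7 DoG2 genes and C for 4 of the 5 DoG5 genes. The share over all well expressed genes is given for DoG1 alone, 22.8% highest in replicate C. The lists were chosen on these same values.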
